A study of Mus musculus with 6 samples.

Results

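The genes described here are 35 mouse genes of sterol and fatty acid synthesis, of its control by the SREBP transcription factors (sterol regulatory element-binding proteins), and related genes, not all of them known SREBP targets. They were picked by symbol from the 46078 genes of the deposited tables and fall into 19 sterol enzymes, 8 SREBP regulators and related genes, and 8 fatty acid enzymes. RNA came from ovaries of C57BL/6 mice aged 8 to 9 weeks, with 3 libraries from mice given cyclophosphamide (CTX, a DNA-alkylating cancer drug) and 3 from control mice. The sources used here do not give the dose, route, time after treatment, cycle stage, handling of the controls or any pooling of animals. Whether each library is a different mouse is not stated either, and the p-values cover only the differences among these 6 libraries, which may be technical. Levels are RPKM (reads per kilobase of gene, scaled to library size). The filter on low values (RPKM 1 or more in 3 or more libraries) left 14535 genes for testing, and all 35 passed it.

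As background, cells sense cholesterol in the membrane of the endoplasmic reticulum. When it is low, the escort protein SCAP carries SREBP precursors to the Golgi, where proteases free the part that enters the nucleus. When it is high, INSIG proteins hold SCAP and SREBP back. The Srebf2 product acts mainly on sterol genes and the Srebf1 product mainly on fatty acid genes, in both cases together with the factors NF-Y and Sp1. Luteal cells, which form after ovulation and make progesterone, need cholesterol as the starting material for steroids and take much of it from lipoproteins.

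Promoter sequence, from 250 bases before to 50 bases after the start, was at hand from RefSeq on GRCm38.p6 for 28 of the 35 genes. No promoter was at hand for Fdps, Fdft1, Sqle, Stard4, Fads1, Scd1 and Scd2. Exact matches were sought on both strands to TCACNCCA (the core of the sterol regulatory element), CCAAT (NF-Y), GGGCGG (Sp1), CACGTG (E-box) and CAAGGTCA (steroidogenic factor 1, a regulator of steroid-making cells). A gene with several annotated starts was counted if any of its windows held the motif. CCAAT was found for 15 of the 16 sterol enzyme genes, 5 of 7 regulator genes and 2 of 5 fatty acid enzyme genes, against 41.1% of all 27025 genes with a promoter. Counted by window, it was in 15 of 19 sterol enzyme windows (Pmvk and Dhcr7 have several) and in 6 of 12 regulator windows (Srebf1, Insig2 and Scap have several). GGGCGG was found for 14 of 16, 6 of 7 and 2 of 5 genes, against 38.2%. The sterol regulatory element core was in 3 of the 28 genes (Hmgcs1, Msmo1 and Srebf2, or 10.7%), against 4.97% of all genes with a promoter. CACGTG was in 5 of the 28 (Hsd17b7, Sc5d, Dhcr7, Insig1 and Scap, or 17.9%) against 8.09%, and CAAGGTCA was in Dhcr7 alone (3.57%), against 1.76%. The 27025 genes include genes that did not pass the filter on low values, so these shares are not those of the tested genes.

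The promoters of 6 genes are shown because they carry the element core (Hmgcs1, Msmo1 and Srebf2), belong to the gene with the widest range of levels (Hsd17b7) or belong to fatty acid genes whose groups did not overlap (Fasn and Elovl6). Capitals mark matches to TCACNCCA, CCAAT or CAAGGTCA on either strand, and a CCAAT on the opposite strand reads as ATTGG. The windows are chr13:119690101-119690400 (plus strand) for Hmgcs1, chr8:64733529-64733828 (minus strand) for Msmo1, chr15:82147019-82147318 (plus strand) for Srebf2, chr1:169969156-169969455 (minus strand) for Hsd17b7, chr11:120824498-120824797 (minus strand) for Fasn and chr3:129532136-129532435 (plus strand) for Elovl6.
Hmgcs1: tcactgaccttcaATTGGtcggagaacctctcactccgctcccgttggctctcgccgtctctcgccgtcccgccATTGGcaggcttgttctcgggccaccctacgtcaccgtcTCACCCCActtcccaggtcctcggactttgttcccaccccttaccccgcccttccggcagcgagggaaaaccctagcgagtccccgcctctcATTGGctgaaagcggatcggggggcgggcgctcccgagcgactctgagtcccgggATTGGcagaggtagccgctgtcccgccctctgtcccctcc
Msmo1: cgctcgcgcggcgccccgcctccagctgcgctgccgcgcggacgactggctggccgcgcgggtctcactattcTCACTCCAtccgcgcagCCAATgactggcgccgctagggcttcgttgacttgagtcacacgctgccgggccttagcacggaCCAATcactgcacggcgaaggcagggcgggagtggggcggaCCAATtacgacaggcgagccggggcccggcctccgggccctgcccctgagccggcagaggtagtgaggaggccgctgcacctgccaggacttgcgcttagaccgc
Srebf2: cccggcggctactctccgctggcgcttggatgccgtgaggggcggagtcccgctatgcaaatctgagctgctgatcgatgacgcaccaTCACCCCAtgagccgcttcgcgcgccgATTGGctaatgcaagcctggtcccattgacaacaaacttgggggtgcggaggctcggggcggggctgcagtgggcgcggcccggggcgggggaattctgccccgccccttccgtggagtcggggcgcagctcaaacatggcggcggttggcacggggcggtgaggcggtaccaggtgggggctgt
Hsd17b7: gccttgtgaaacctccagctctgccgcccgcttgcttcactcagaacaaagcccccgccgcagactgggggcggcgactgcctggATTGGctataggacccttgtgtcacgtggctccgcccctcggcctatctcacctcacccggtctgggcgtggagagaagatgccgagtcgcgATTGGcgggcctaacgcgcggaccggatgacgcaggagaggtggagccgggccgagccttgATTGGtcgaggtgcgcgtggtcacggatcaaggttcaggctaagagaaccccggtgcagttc
Fasn: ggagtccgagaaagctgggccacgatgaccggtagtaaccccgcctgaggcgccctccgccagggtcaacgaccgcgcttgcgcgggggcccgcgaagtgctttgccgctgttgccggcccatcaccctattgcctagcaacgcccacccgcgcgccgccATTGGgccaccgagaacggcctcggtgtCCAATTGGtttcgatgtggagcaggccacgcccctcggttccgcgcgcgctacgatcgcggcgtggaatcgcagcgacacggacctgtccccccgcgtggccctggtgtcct
Elovl6: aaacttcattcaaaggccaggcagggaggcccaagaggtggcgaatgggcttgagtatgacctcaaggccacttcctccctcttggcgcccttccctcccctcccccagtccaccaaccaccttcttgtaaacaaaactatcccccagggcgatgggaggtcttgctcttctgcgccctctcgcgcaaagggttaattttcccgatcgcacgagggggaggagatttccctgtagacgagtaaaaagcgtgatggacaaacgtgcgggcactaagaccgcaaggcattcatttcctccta
In Hmgcs1 the element core stands among several CCAAT matches, and in Msmo1 it stands before all 3 of them. Hsd17b7 has 3 CCAAT matches and no element core in this window. The Fasn window holds 3 matches, of which a pair overlaps as CCAATTGG, and none of the 3 marked motifs is in that of Elovl6. A match describes letters and does not show binding.

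The 6 libraries did not sort by treatment, and this touches every value given for the 35 genes. Markers of luteal cells, granulosa cells and oocytes were present in all libraries. Luteal markers (10 genes, led by Hsd3b1 and Cyp11a1) summed to 12633, 3825 and 3775 RPKM in CTX 1, 2 and 3, against 9369, 10337 and 4810.0 RPKM in controls 1, 2 and 3. Granulosa cell markers (10 genes, from the cells that surround the oocyte) summed to 972, 3249 and 3221 RPKM in CTX 1, 2 and 3, against 1636, 1487 and 3651 RPKM in controls 1, 2 and 3. CTX 1 and controls 1 and 2 were thus high in luteal and low in granulosa RNA, while CTX 2 and 3 and control 3 were the reverse. Oocyte markers (10 genes) summed to 98.4, 370.1 and 357 RPKM in CTX 1, 2 and 3, against 159.7, 137 and 324 RPKM in controls 1, 2 and 3. Theca and interstitial markers (7 genes) summed to 755, 1732 and 1731 RPKM in CTX 1, 2 and 3, against 975, 888 and 1414 RPKM in controls 1, 2 and 3, also lower in the luteal-rich libraries. Sums of macrophage, endothelial and surface epithelium markers varied less, by at most 1.83-fold between libraries, but some of these markers divided by treatment. Every CTX library lay below every control library in 4 of 8 surface epithelium markers (Upk1b, Msln, Muc16 and Epcam, named after their values were seen), in 2 of 8 endothelial markers (Tie1 and Tek) and in 1 of 7 tested macrophage markers (Csf1r), against 5.5% of all tested genes. Among 10 granulosa cell markers, 1 (Inhbb) was also wholly lower in CTX. Among 7 theca and interstitial markers, 1 (Insl3) was wholly higher in CTX, against 3.32% of all tested genes. Insl3 had 16.9, 18.01 and 17.8 RPKM in CTX 1, 2 and 3, against 9.27, 7.38 and 13.2 RPKM in controls 1, 2 and 3. Fitted log2 fold changes were negative in 7 of the 8 surface epithelium markers, all 8 endothelial markers and all 10 luteal markers. They were positive in all 7 theca and interstitial markers, with 0 called in any of these lists (limma, adjusted p under 0.05). In whole-tissue RNA, fewer cells of a type and less RNA per cell cannot be told apart.

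Most sterol enzymes were high in the luteal-rich libraries of both groups, and 0 of the 19 passed the test between CTX and control (limma, adjusted p under 0.05), against 0.0% of all tested genes. In 18 of the 19 sterol enzymes, CTX 1 and controls 1 and 2 all lay above CTX 2, CTX 3 and control 3, an order met by 16.5% of all tested genes and described here because it was seen in the data. Summed over the 19 genes, the level was 1686, 319 and 326 RPKM in CTX 1, 2 and 3, against 1067, 1126 and 319.7 RPKM in controls 1, 2 and 3. The part of luteal content in this order was not tested. CTX 1 was the highest library in 17 of the 19, against 24.0% of all tested genes, and in 11 of them its level was at least 1.5 times that of both control 1 and control 2, against 5.26%. The median ratio of CTX 1 to control 1 over the sterol enzymes was 1.66 and to control 2 was 1.59, compared with 0.926 and 0.935 over all tested genes.

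The first steps build mevalonate and its activated isoprene units. Acat2, encoding the cytosolic thiolase that joins acetyl-CoA units, had 48.02, 7.78 and 6.56 RPKM in CTX 1, 2 and 3, against 23.4, 29.9 and 9.55 RPKM in controls 1, 2 and 3. Hmgcs1, encoding HMG-CoA synthase and the most abundant sterol enzyme, had 607, 67.3 and 75.7 RPKM in CTX 1, 2 and 3, against 361, 294 and 85.03 RPKM in controls 1, 2 and 3. Both genes were highest in CTX 1, and all control values lay within the range of the CTX values. Mvd, encoding the decarboxylase that makes isopentenyl diphosphate, had 116, 10.1 and 9.18 RPKM in CTX 1, 2 and 3, against 55.2, 48.7 and 10.7 RPKM in controls 1, 2 and 3, so CTX 1 held more than both luteal-rich controls together. The kinases that act before it spread less. Mvk, encoding mevalonate kinase, had 30.6, 8.15 and 9.64 RPKM in CTX 1, 2 and 3, against 12.9, 13.8 and 7.48 RPKM in controls 1, 2 and 3. Pmvk, encoding phosphomevalonate kinase, had 22.1, 9.17 and 9.40 RPKM in CTX 1, 2 and 3, against 14.1, 13.9 and 10.2 RPKM in controls 1, 2 and 3. Idi1, encoding the isomerase that follows Mvd, had 15.2, 2.59 and 3.81 RPKM in CTX 1, 2 and 3, against 11.4, 12.8 and 3.09 RPKM in controls 1, 2 and 3, with CTX 1 close to controls 1 and 2.

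Farnesyl diphosphate is where sterol synthesis parts from other isoprenoid routes. Fdps, encoding farnesyl diphosphate synthase, had 70.8, 8.81 and 9.52 RPKM in CTX 1, 2 and 3, against 36.9, 40.5 and 11.6 RPKM in controls 1, 2 and 3. Ggps1, encoding the enzyme that lengthens farnesyl to geranylgeranyl diphosphate for protein prenylation and thus leaves the sterol route, had 13.2, 17.6 and 18.6 RPKM in CTX 1, 2 and 3, against 21.2, 18.5 and 19.02 RPKM in controls 1, 2 and 3. It was the exception among the 19, with its lowest level in CTX 1 and a 1.61-fold range over all libraries. Fdft1, encoding squalene synthase, the first enzyme committed to sterols, had 86.1, 34.95 and 31.4 RPKM in CTX 1, 2 and 3, against 44.3, 46.7 and 27.1 RPKM in controls 1, 2 and 3. Sqle, encoding squalene epoxidase, had 56.5, 9.79 and 10.3 RPKM in CTX 1, 2 and 3, against 34.02, 31.6 and 9.81 RPKM in controls 1, 2 and 3. Both had the order of the other sterol genes, with CTX 1 at 1.85 times (Fdft1) and 1.66 times (Sqle) the next library.

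The later enzymes turn lanosterol into cholesterol, and Hsd17b7 stood apart among them. Hsd17b7 encodes the 3-ketosteroid reductase of sterol demethylation and, in rodents, is also known from the corpus luteum, where its product was described as an associate of the prolactin receptor. It had 176, 9.58 and 10.3 RPKM in CTX 1, 2 and 3, against 174, 270.4 and 11.5 RPKM in controls 1, 2 and 3. This 28.2-fold range was the widest of the 35 genes, and CTX 1 was level with control 1 and below control 2. Dhcr7, encoding the reductase that completes cholesterol, had 112, 12.5 and 11.5 RPKM in CTX 1, 2 and 3, against 54.5, 63.6 and 11.98 RPKM in controls 1, 2 and 3. Lss, encoding lanosterol synthase, had 21.5, 3.35 and 3.28 RPKM in CTX 1, 2 and 3, against 15.9, 17.9 and 3.63 RPKM in controls 1, 2 and 3. Cyp51, encoding the lanosterol demethylase, had 77.7, 15.3 and 16.1 RPKM in CTX 1, 2 and 3, against 47.3, 49.8 and 13.3 RPKM in controls 1, 2 and 3. In these genes CTX 2, CTX 3 and control 3 lay close together and far below the other libraries. Over the 19 sterol enzymes the highest library exceeded the lowest by a median of 5.77-fold, against 1.64-fold over all tested genes.

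Nsdhl, encoding the demethylation enzyme that acts beside Hsd17b7, had 35.5, 10.7 and 10.1 RPKM in CTX 1, 2 and 3, against 21.6, 28.8 and 10 RPKM in controls 1, 2 and 3. The ratio of Hsd17b7 to Nsdhl within each library was 4.94, 0.897 and 1.02 in CTX 1, 2 and 3, against 8.06, 9.39 and 1.15 in controls 1, 2 and 3, so the luteal-rich control libraries held relatively more Hsd17b7 than CTX 1. Msmo1, encoding the sterol methyl oxidase of the same complex, had 65.3, 14.5 and 16.6 RPKM in CTX 1, 2 and 3, against 39, 36.6 and 19.96 RPKM in controls 1, 2 and 3. Tm7sf2 (sterol reductase) and Ebp (sterol isomerase) ran from 4.57 to 20.1 RPKM and from 11.2 to 31.8 RPKM in CTX, against 4.56 to 17.1 RPKM and 12.4 to 24.7 RPKM in control, in the same order of libraries. Sc5d, encoding the sterol desaturase, was more even with 81.7, 59.2 and 58.7 RPKM in CTX 1, 2 and 3, against 67.7, 67.3 and 39.1 RPKM in controls 1, 2 and 3.

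**Figure D1:**
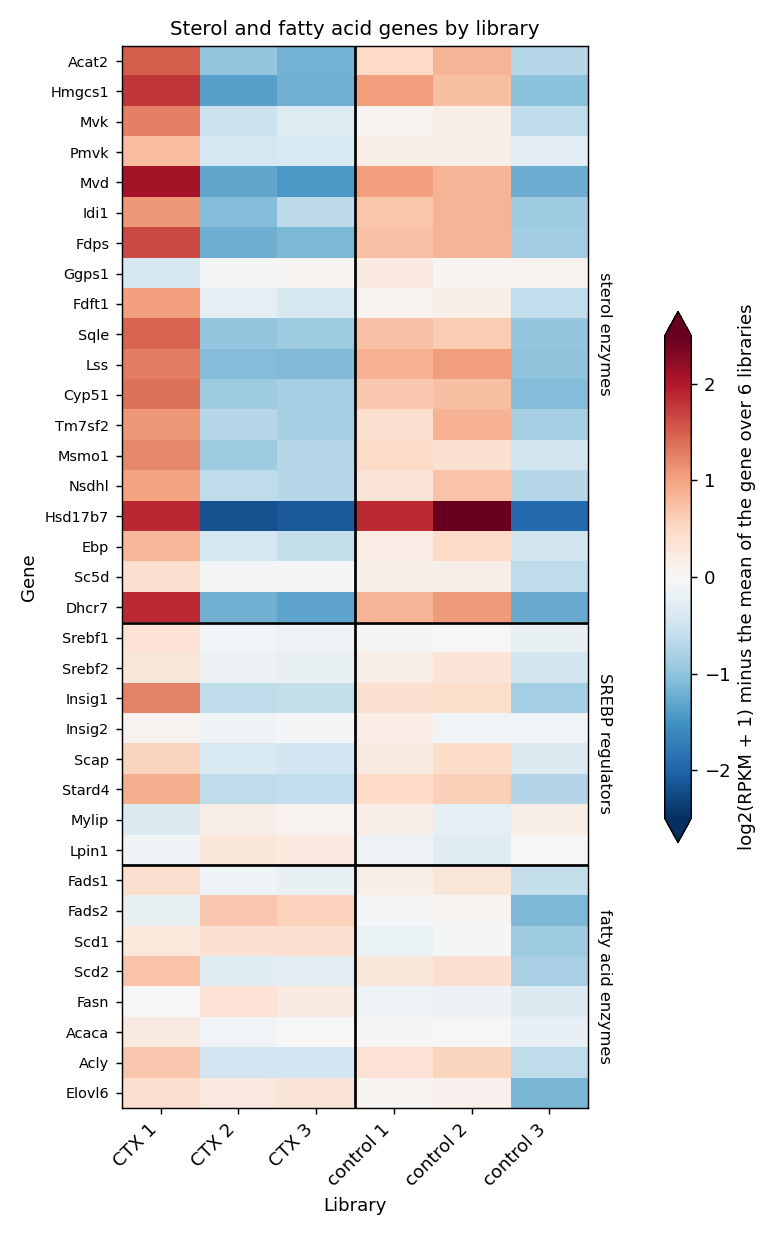
Levels of the 35 genes (rows, by group of genes) in each library (columns, CTX left of the line and control right of it), as log2(RPKM + 1) minus the mean of the gene over the 6 libraries. CTX 1 and controls 1 and 2 are above CTX 2, CTX 3 and control 3 in 18 of 19 sterol enzymes, and all 8 fatty acid enzymes are lowest in control 3.

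Between the groups, fitted log2 fold changes (CTX minus control, ± SE, limma on log2(RPKM + 1)) were negative in 16 of the 19 sterol enzymes, against 51.2% of all tested genes, with a median of −0.27 (all tested genes −0.005). They ran from −1.61 ± 1.53 for Hsd17b7 to 0.27 ± 0.50 for Mvk. Hmgcs1 averaged 249.9 ± 309 RPKM in CTX and 247 ± 144 RPKM in control (mean ± SD, n = 3 each here and below) with a log2 fold change of −0.51 ± 0.97, and Dhcr7 averaged 45.2 ± 57.5 RPKM in CTX and 43.3 ± 27.5 RPKM in control with −0.43 ± 1.02. For both genes the mean RPKM was higher in CTX while the change fitted on the log scale was negative, and CTX 1 held the highest of the 6 values. Of the 35 genes, 0 were called higher and 0 lower at an adjusted p under 0.05, against 0.0% of the 14535 genes tested in each direction, and every adjusted p of the 35 was 1.00 (limma, Benjamini-Hochberg over all tested genes). At an unadjusted p under 0.05 there were 2 of the 35 (Scd1 and Fasn), both higher, against 1.16% of all tested genes higher and 2.29% lower.

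The count of 0 called genes depended on giving all libraries equal weight. With limma's array weights, which set CTX 1 to 0.0806 and control 3 to 0.254 against 1.06 to 6.36 for the others, 4 of the 35 genes were called higher, against 27.9% of all tested genes, and 25 lower, against 18.9%, and the median log2 fold change of the sterol enzymes was −1.46. The 2 libraries given the least weight were the luteal-rich CTX library and the luteal-poor control. The sterol median was −0.97 without CTX 1, −0.82 without control 3, 0.05 without CTX 2 and 0.08 without CTX 3, with 0 of the 35 genes called each time. In 0 of the 35 genes did every CTX library lie below every control library, against 5.5% of all tested genes. Without CTX 1 that number was 9 (17.0% of all tested genes), namely Acat2, Hmgcs1, Pmvk, Mvd, Fdps, Lss, Msmo1, Hsd17b7 and Scap.

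**Figure D2:**
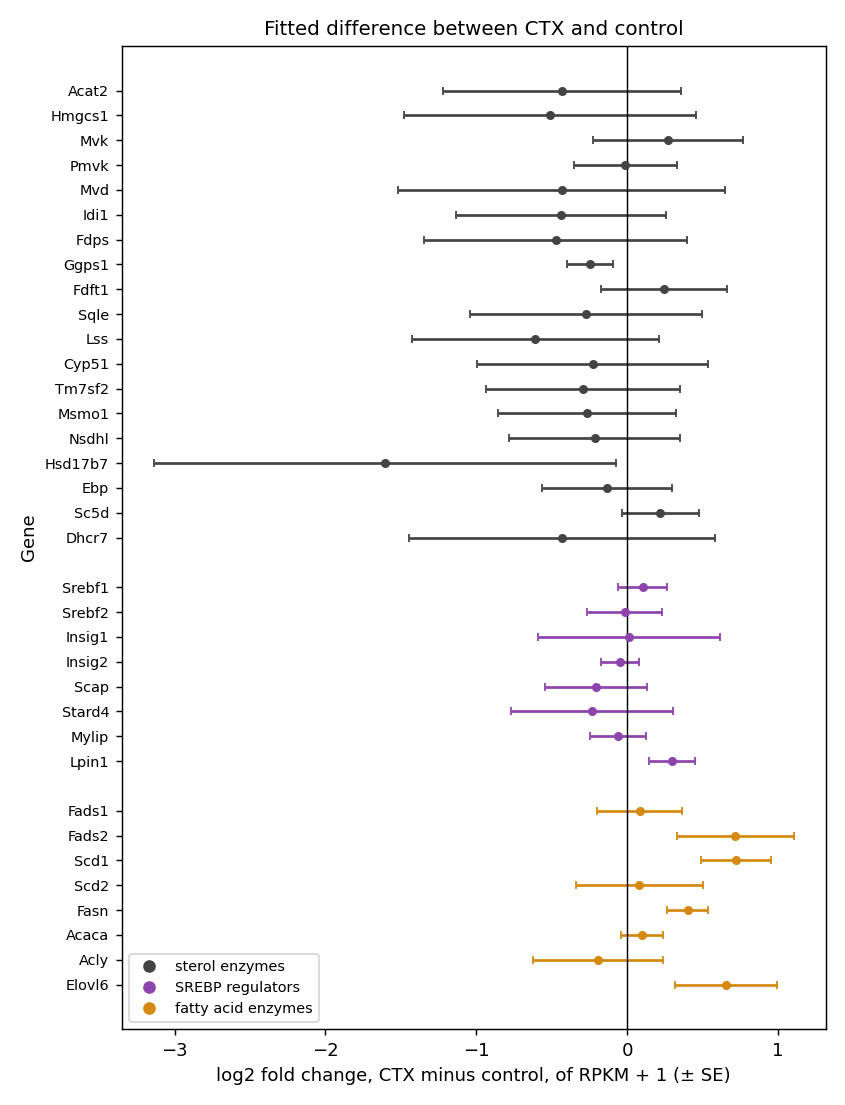
Fitted log2 fold change, CTX minus control, with its standard error for each of the 35 genes, by group of genes (limma on log2(RPKM + 1), 3 libraries each). Scd1, Fads2, Elovl6 and Fasn are farthest to the right, Hsd17b7 is farthest to the left with the widest error, and no gene passes at an adjusted p under 0.05.

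Among the regulators, Insig1 had the order and the wide range of the sterol enzymes, while the transcription factor genes had the order with smaller ranges. None of the 8 passed the test. Insig1, whose product retains SCAP and whose gene is itself an SREBP target, had 101, 26.7 and 27.1 RPKM in CTX 1, 2 and 3, against 54.99, 57.1 and 22.7 RPKM in controls 1, 2 and 3. CTX 1 held 1.76 times the next library. A lead of at least 1.5 times both control 1 and control 2 was also met by 11 of the 19 sterol enzymes. Insig2, a paralog that is not known as a strong SREBP target, had 13.5, 11.6 and 12.2 RPKM in CTX 1, 2 and 3, against 14.6, 12.1 and 12.04 RPKM in controls 1, 2 and 3. Its 1.26-fold range was the narrowest of the 35 genes. The ratio of Insig1 to Insig2 was 7.46, 2.30 and 2.22 in CTX 1, 2 and 3, against 3.77, 4.74 and 1.89 in controls 1, 2 and 3, with CTX 1 well above every control.

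Srebf2 had 44.1, 32.1 and 30.9 RPKM in CTX 1, 2 and 3, against 39.8, 44.8 and 25.3 RPKM in controls 1, 2 and 3. Srebf1 had 20.9, 15.2 and 14.7 RPKM in CTX 1, 2 and 3, against 16.3, 16.2 and 13.9 RPKM in controls 1, 2 and 3. Their highest libraries exceeded their lowest by 1.77-fold (Srebf2) and 1.498-fold (Srebf1), so their transcripts spread far less than those of most sterol enzymes. These ranges were near the median of 1.64-fold over all tested genes. Scap, encoding the escort protein and with the highest mean of the regulators over the 6 libraries, had 72.2, 37.3 and 34.8 RPKM in CTX 1, 2 and 3, against 57.3, 67.2 and 37.6 RPKM in controls 1, 2 and 3. Stard4, encoding a carrier that moves cholesterol between membranes, had 16.5, 5.01 and 5.05 RPKM in CTX 1, 2 and 3, against 12.1, 12.99 and 4.59 RPKM in controls 1, 2 and 3, again in the order of the sterol enzymes. CTX 1 and controls 1 and 2 all lay above the other libraries in 5 of these 8 genes (Srebf1, Srebf2, Insig1, Scap and Stard4), against 16.5% of all tested genes.

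Mylip and Lpin1 did not have this order. Mylip, encoding a ubiquitin ligase that acts on lipoprotein receptors and a target of the sterol-sensing LXR receptors, had 7.76, 11.3 and 10.7 RPKM in CTX 1, 2 and 3, against 11.4, 8.38 and 11.3 RPKM in controls 1, 2 and 3, with low values in CTX 1 and control 2. Lpin1, encoding a phosphatidate phosphatase of glycerolipid synthesis, had 6.19, 8.33 and 7.99 RPKM in CTX 1, 2 and 3, against 5.99, 5.14 and 6.58 RPKM in controls 1, 2 and 3. It was the 1 gene of the 35 in which CTX 1 and controls 1 and 2 all lay below the rest, an order met by 30.9% of all tested genes. Its log2 fold change was 0.30 ± 0.15, and the groups overlapped only between CTX 1 and control 3. The median log2 fold change of the 8 regulators was −0.03, with 3 positive and 5 negative.

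**Figure D3:**
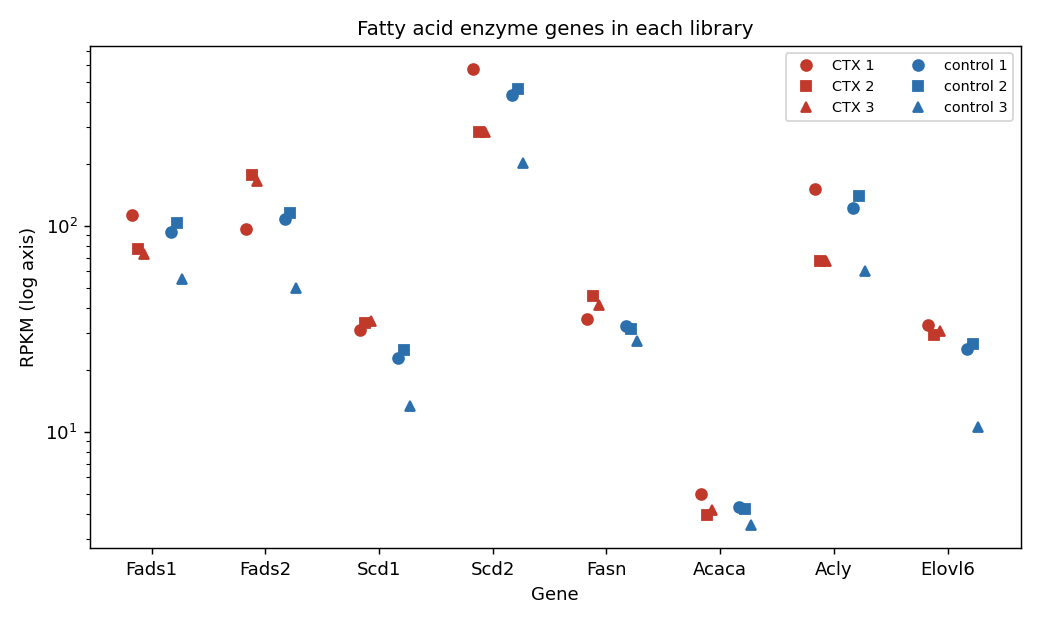
RPKM on a log axis of the 8 fatty acid enzyme genes in each library (CTX in red, left of control in blue, with a symbol for each replicate number). In Scd1, Fasn and Elovl6 every CTX point lies above every control point, and control 3 is the lowest point of each gene.

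The fatty acid enzymes were higher in CTX in more genes than they were lower, without passing the test. In Scd1, Fasn and Elovl6, 3 of the 8, every CTX library lay above every control library. Over the 35 genes this makes 3 (8.57%), against 3.32% of all tested genes, and groups that did not overlap in either direction made up 8.83% of all tested genes. In the same libraries 4 of 8 surface epithelium markers lay wholly lower in CTX and 1 of 7 theca and interstitial markers (Insl3) wholly higher. The part of such cells in the order of Scd1, Fasn and Elovl6 was not tested. Fitted log2 fold changes were positive in 7 of the 8, against 7093 of all 14535 tested genes. Their median was 0.25 (all tested genes −0.005). All 8 genes had their lowest level in control 3, which was the lowest library in 10.1% of all tested genes. Without control 3 the median was 0.14, and Fads1 (−0.19) and Scd2 (−0.30) turned negative, so the count of positive changes depended on that library.

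Scd1 encodes the main stearoyl-CoA desaturase of adipose tissue and liver, which makes oleate from stearate. It had 30.99, 33.5 and 34.6 RPKM in CTX 1, 2 and 3, against 22.7, 24.9 and 13.3 RPKM in controls 1, 2 and 3, or 33.02 ± 1.84 RPKM in CTX and 20.3 ± 6.16 RPKM in control. The CTX libraries lay within 1.12-fold of each other, and the lowest of them was above the highest control. Its log2 fold change was 0.72 ± 0.23 with an unadjusted p of 0.0197 and an adjusted p of 1.00 (limma). With each library left out in turn the log2 fold change stayed between 0.46 (without control 3) and 0.89.

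Fasn, encoding the fatty acid synthase, had 35.3, 45.7 and 41.2 RPKM in CTX 1, 2 and 3, against 32.5, 31.5 and 27.6 RPKM in controls 1, 2 and 3, with CTX 2 and 3 highest. It averaged 40.8 ± 5.21 RPKM in CTX and 30.5 ± 2.58 RPKM in control, and its log2 fold change was 0.40 ± 0.14 with an unadjusted p of 0.0235 and an adjusted p of 1.00 (limma). Elovl6, encoding the elongase that turns palmitate into stearate, had 33.1, 29.3 and 30.7 RPKM in CTX 1, 2 and 3, against 25.3, 26.6 and 10.5 RPKM in controls 1, 2 and 3. Here the gap between the groups was small next to the distance of control 3 from controls 1 and 2. Its log2 fold change of 0.66 ± 0.34 became 0.25 without control 3.

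The desaturases of polyunsaturated fatty acids are neighbours on chromosome 19, and they parted from each other. Fads1 had 112, 77.4 and 73.1 RPKM in CTX 1, 2 and 3, against 92.8, 103 and 55.2 RPKM in controls 1, 2 and 3, highest in CTX 1. Fads2 had 96.4, 176 and 164 RPKM in CTX 1, 2 and 3, against 107, 116 and 49.8 RPKM in controls 1, 2 and 3, highest in CTX 2 and 3. The ratio of Fads2 to Fads1 was 0.860, 2.28 and 2.25 in CTX 1, 2 and 3, against 1.16, 1.12 and 0.902 in controls 1, 2 and 3. CTX 2 and 3 held about the same ratio, above those of every control, and CTX 1 had the lowest ratio of the 6 libraries. Fads2 averaged 146 ± 43.2 RPKM in CTX and 90.95 ± 35.8 RPKM in control, with a log2 fold change of 0.72 ± 0.39, and without control 3 this became 0.34.

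Scd2, encoding another stearoyl-CoA desaturase and with the highest mean of the 35 genes over the 6 libraries, had 577, 285 and 286 RPKM in CTX 1, 2 and 3, against 428, 460.5 and 201 RPKM in controls 1, 2 and 3, in the order of the sterol enzymes. The ratio of Elovl6 to Fads1 was 0.296, 0.379 and 0.420 in CTX 1, 2 and 3, against 0.272, 0.257 and 0.190 in controls 1, 2 and 3, without overlap between the groups. These ratios were picked after the values were seen and are descriptions. The ratio of Scd1 to Scd2 was 0.0537, 0.118 and 0.121 in CTX 1, 2 and 3, against 0.0530, 0.0541 and 0.0663 in controls 1, 2 and 3. It was again set apart in CTX 2 and 3, while CTX 1 fell among the controls. Acly, encoding ATP citrate lyase, which supplies cytosolic acetyl-CoA to both routes, had 149.9, 66.99 and 67.7 RPKM in CTX 1, 2 and 3, against 121, 139 and 60.1 RPKM in controls 1, 2 and 3. It was the 1 fatty acid enzyme with a negative log2 fold change (−0.19 ± 0.43). Acaca, encoding acetyl-CoA carboxylase, had the lowest mean over the 6 libraries of the 35 genes, with 5.01, 3.94 and 4.16 RPKM in CTX 1, 2 and 3, against 4.31, 4.21 and 3.51 RPKM in controls 1, 2 and 3.

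**Figure D4:**
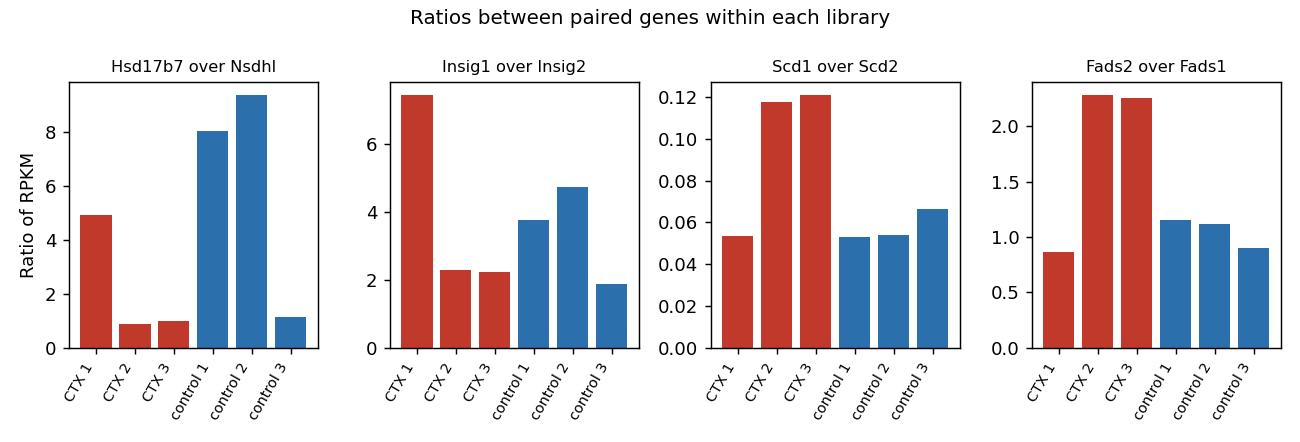
Ratios of RPKM of 4 pairs of genes (bars from 0) within each library (CTX in red, left of control in blue). CTX 2 and 3 stand above all other libraries in Scd1 over Scd2 and in Fads2 over Fads1, CTX 1 is highest in Insig1 over Insig2, and Hsd17b7 over Nsdhl is low in CTX 2, CTX 3 and control 3.

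Fat cells express Scd1, Fasn and Elovl6 strongly, and markers of fat cells were uneven among the libraries. The 10 adipocyte markers, led by Cfd, summed to 26, 195 and 181 RPKM in CTX 1, 2 and 3, against 22.8, 20.5 and 144 RPKM in controls 1, 2 and 3. Cfd (adipsin) had 0.48, 109 and 97.1 RPKM in CTX 1, 2 and 3, against 1.63, 0.07 and 90.8 RPKM in controls 1, 2 and 3. Adipoq, the defining hormone gene, had 0.08, 17.3 and 15.5 RPKM in CTX 1, 2 and 3, against 0.27, 0 and 13.3 RPKM in controls 1, 2 and 3. Adipoq and Cfd were under 1 RPKM in CTX 1 and high in CTX 2, CTX 3 and control 3. Adipoq, Lep, Retn, Cidec, Pck1 and Adrb3 were at 0 in at least 1 library, and Lipe, which steroid-making cells also express, made up 18.9 RPKM of the sum in CTX 1. The part of fat cell RNA in the levels of the fatty acid enzymes was not tested in any library. The fatty acid enzymes together summed to 1039.6, 718 and 702 RPKM in CTX 1, 2 and 3, against 835, 906 and 421 RPKM in controls 1, 2 and 3.

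**Figure D5:**
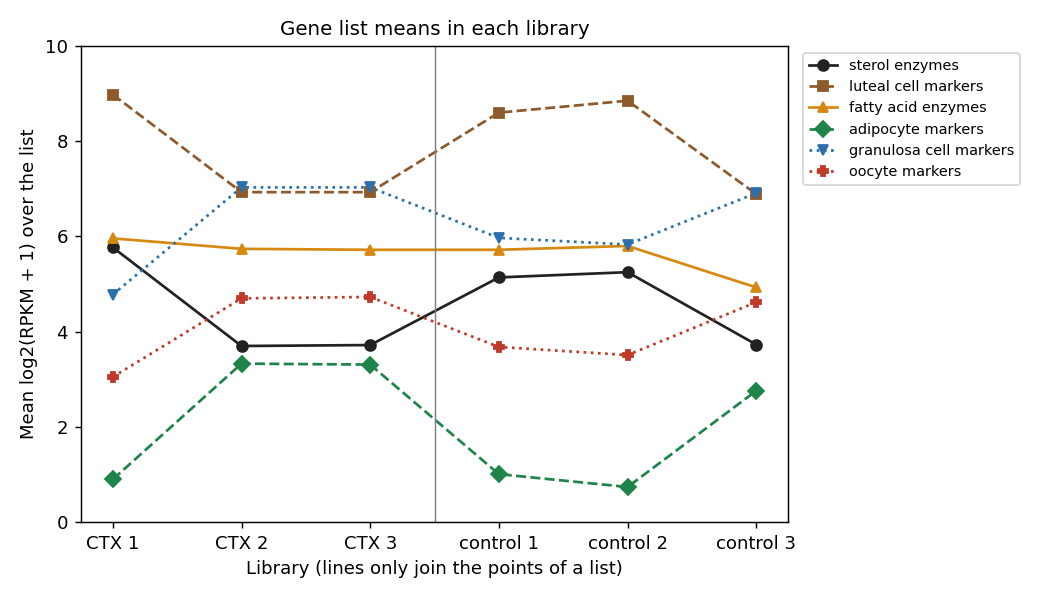
Mean log2(RPKM + 1) of the sterol enzymes, the fatty acid enzymes and 4 marker lists in each library (CTX left of the line, control right of it). Sterol enzymes are high where luteal markers are high (CTX 1 and controls 1 and 2), whereas the fatty acid mean is 5.72 to 5.96 in 5 libraries and 4.93 in control 3.

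Other genes of the pathways were taken from 3 further lists, and 0 of their 44 genes were called in either direction. In 17 other sterol and SREBP pathway genes, 8 fitted changes were positive and 9 negative with a median of −0.04. Pgrmc1, encoding a membrane protein that binds heme and P450 enzymes, had 164, 164 and 178 RPKM in CTX 1, 2 and 3, against 163, 159 and 209 RPKM in controls 1, 2 and 3. Of the 17, 5 had CTX 1 and controls 1 and 2 above the rest, against 16.5% of all tested genes.

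In 16 other fatty acid synthesis genes, 7 fitted changes were positive and 9 negative with a median of −0.06. The order of the sterol enzymes was met by 10 of the 16, against 16.5% of all tested genes. Me1, encoding the malic enzyme that supplies NADPH, had 599.8, 166 and 174 RPKM in CTX 1, 2 and 3, against 505, 480.2 and 277 RPKM in controls 1, 2 and 3. Elovl5, encoding an elongase of polyunsaturated fatty acids, had 282, 103 and 100.2 RPKM in CTX 1, 2 and 3, against 239, 312 and 75.1 RPKM in controls 1, 2 and 3. Both followed the luteal-rich libraries, unlike Fads2. In 11 genes of other isoprenoid branches, 9 changes were positive and 2 negative with a median of 0.08. Fnta, a subunit of the prenyltransferases, had 58.5, 39.9 and 39.9 RPKM in CTX 1, 2 and 3, against 43.2, 42.6 and 39.5 RPKM in controls 1, 2 and 3. Rabggtb, a subunit of the enzyme that prenylates Rab proteins, had 43.6, 29.1 and 29.1 RPKM in CTX 1, 2 and 3, against 32.5, 35.1 and 29.8 RPKM in controls 1, 2 and 3. Both had narrow spreads, as did Ggps1, but both were highest in CTX 1, where Ggps1 was lowest. CTX 1 and controls 1 and 2 lay above the rest in 3 of the 11 genes, against 16.5% of all tested genes, and below the rest in 3, against 30.9%.

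The counting of some of these genes is uncertain, since the sources used here state neither the use of strand nor the treatment of reads with several matches. Of the 35 genes, 9 shared at least 5% of their 50-base stretches with annotated transcripts of other genes. Acat2 shared 39.1%, most with its tandem copy Acat3, which had 0.38 to 0.78 RPKM. Fdft1 shared 26.5%, most with Ctsb, a cathepsin gene that overlaps it on the opposite strand and had 237, 180.0 and 174 RPKM in CTX 1, 2 and 3, against 217, 189 and 164 RPKM in controls 1, 2 and 3. Acaca (30.4%), Fdps (26.2%), Idi1 (25.3%) and Hmgcs1 (11.6%) shared stretches with predicted genes or pseudogenes, and Scap (9.96%), Tm7sf2 (9.87%) and Ggps1 (9.58%) followed. Scd1 and Scd2 shared 4.56% and 3.97%, most with Scd3 and with Scd1.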

How the data were processed

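RNA was extracted with Trizol from snap-frozen ovaries and made into TruSeq libraries, per the labels' protocols. Bowtie 0.12.2 and mm10 are named in the submitters' processing notes, while the sources used here name no read counter. The authors deposited 1 value per gene and library, taken here as RPKM because no header states the unit. Among genes of at most 1000 exonic bases (GENCODE M21, 98.2% of identifiers matched), values worth up to 15 reads fell within 0.2 of whole reads in 97.7 to 98.0% of cases, at a depth scale of 17200000 to 22100000 reads in CTX and 15800000 to 16800000 in control. The scale of each library was chosen from many because it raised this share, so the share is no independent check of the scale. The fewest reads behind any value of the 35 genes were about 180 (Idi1, control 3), and counting error does not include the spread between animals. CTX 2 and 3 were the most alike pair (mean chi-square 6.42 per gene and median 1.498, where noise alone gives a mean of about 1). They were kept apart as different libraries, which does not show that they came from different animals.

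Genes that reached RPKM 1 in 3 or more libraries were fitted as log2(RPKM + 1), which understates changes of low genes, in limma 3.58.1 (R 4.3.3) with a mean-variance trend, two-sided, with Benjamini-Hochberg adjustment over 14535 genes and a call below 0.05. The fit was checked on simulated data with independent noise for each gene. Those data lacked the split of libraries seen here, so the check does not cover it. The genes, lists and alternatives were chosen with earlier results of these data known. All 35 genes are named, and of the other lists the most abundant, of which 1 gene is not reported here. Alternatives were trimmed-mean scaling, quantile normalization, pseudocounts of 0.1 and 0.5, no filter, a filter at a mean RPKM of 5, no trend, array weights, the replicate number as a block, and each library left out. Promoters are RefSeq's on GRCm38.p6, the assembly of mm10.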

Additional observations from a re-analysis of the deposited data

How the results depend on the processing

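The count of 0 called genes, over all genes and among the 35, held under each scaling, filter, pseudocount and trend setting and with the replicate block. Array weights gave 6809 called genes (4062 higher and 2747 lower), 29 of them among the 35 (4 higher and 25 lower), and a sterol enzyme median of −1.46, and they turned the direction of Mvk (−0.47), Fdft1 (−0.37), Sc5d (−0.16), Srebf1 (−0.11), Insig1 (−0.94), Mylip (0.0049), Fads1 (−0.29), Scd2 (−0.55) and Acaca (−0.060). Trimmed-mean scaling turned Pmvk (0.019) and Srebf2 (0.016), and quantile normalization turned Insig1 (−0.10). Replicate numbers in the titles were not taken to pair the libraries, but pairing could not be decided. Deviations of same-numbered libraries correlated at 0.40, −0.54 and 0.60, and CTX 1 correlated best with control 2 (0.61). These correlations follow the split into luteal-rich and luteal-poor libraries, which would hide a weaker pairing. The replicate block left 0 calls, and in this balanced design it cannot change a fitted direction. Searching only the 250 bases before the start left 3 genes with the sterol element core, but CCAAT was then found for 1 of 5 fatty acid enzyme genes (Fasn, without Acly).

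With each library left out, called genes numbered 0 to 13 (13 without CTX 1, with 0 of the 35). Genes among the 35 with CTX wholly above control numbered 3 to 5 (5 without CTX 1, with Lpin1 and Fads2 added, while 22.8% of all tested genes met the rule), and wholly below 0 to 9 (9 without CTX 1, against 17.0% of all tested genes, 2 without control 2, against 8.9%, and 1 without CTX 3, against 9.16%), counts chosen for this check after the data were seen. Medians ran from −0.97 to 0.08 for sterol enzymes, −0.17 to 0.07 for regulators and 0.14 to 0.36 for fatty acid enzymes. Log2 fold changes that turned with a library left out ranged as follows: Acat2 −1.29 to 0.055, Hmgcs1 −1.53 to 0.044, Mvk −0.29 to 0.61, Pmvk −0.40 to 0.19, Mvd −1.59 to 0.17, Fdps −1.41 to 0.023, Fdft1 −0.20 to 0.51, Sqle −1.06 to 0.14, Cyp51 −0.97 to 0.16, Tm7sf2 −0.91 to 0.067, Msmo1 −0.93 to 0.11, Nsdhl −0.78 to 0.090, Ebp −0.58 to 0.13, Sc5d −0.038 to 0.35, Dhcr7 −1.47 to 0.11, Srebf1 −0.048 to 0.19, Srebf2 −0.25 to 0.15, Insig1 −0.61 to 0.33, Insig2 −0.10 to 0.039, Stard4 −0.74 to 0.028, Mylip −0.19 to 0.090, Fads1 −0.19 to 0.26, Scd2 −0.30 to 0.30, Acly −0.57 to 0.040. Those of Scd1, Fasn, Elovl6, Fads2, Lpin1, Acaca, Hsd17b7, Idi1, Lss, Scap and Ggps1 kept their direction with each library left out. At the filter of mean RPKM 5, Acaca was not tested. Each value of the 35 genes stands for about 180 reads or more, but with 3 in each group, the standard error exceeded the fitted difference in 17 of the 19 sterol enzymes (not Ggps1 and Hsd17b7).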
